A study of Caenorhabditis elegans with 16 samples.

Results

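The L4 and L2 larvae of C. elegans were compared on 8 single-colour miRNA arrays, the 4 L4 arrays and the 4 L2 arrays of a series of 16, chosen by their sample titles. Each stage had 1 array from each of 4 immunoprecipitations (IPs), and the arrays were paired by IP. In the ALG-1 IP, an antibody against ALG-1 was used on lysate of animals labelled wild type, although the methods of the study describe transgenic animals that expressed ALG-1 from an integrated array. In the ALG-1 control IP, the same antibody was used on alg-1 (gk214) animals, which carry a deletion of the gene. In the ALG-2-Tag IP, a monoclonal antibody against GFP was used on alg-2 mutants carrying GFP-tagged ALG-2 (genotype labelled alg-2; ALG-2::GFP) from an integrated transgene under the alg-2 promoter. In the ALG-2-Tag control IP, that antibody was used on wild type N2 animals, the reference strain of the species, which have no GFP. All animals were labelled with the N2 background, were synchronised by bleaching to obtain embryos and were grown on solid medium, and the controls of the ALG-1 antibody still had ALG-2. Every array held 96 probes in 8 spots each, and all 96 were followed. In whole-animal lysates, fewer cells with a miRNA and less of it in each cell cannot be told apart.

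Argonaute proteins hold a miRNA, a short RNA cut from a hairpin precursor by Dicer, and use it to find and silence messenger RNAs. ALG-1 and ALG-2 are the Argonautes of the miRNA pathway in C. elegans. Between the L2 and the L4 stage the larva passes through developmental decisions that miRNAs are known to time, with lin-4 acting in the earlier larval stages and let-7 towards the adult. Probes are known here by a number alone (emc01 to emc96), without a miRNA name or a sequence, so no value could be tied to lin-4, let-7 or any other miRNA, and at most 2 probe numbers are given in each direction of a comparison.

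The array profiles did not follow the pairing of each IP with its own control. Every direction below rests on the labels, and whether samples were exchanged was not tested. By deposited intensity (linear, local background subtracted), 0 of the 96 probes were brighter at L2 in the ALG-1 IP than on the matching control array, made from animals lacking ALG-1, and at L4 30 were. For the ALG-2-Tag IP 12 probes were brighter than with its control at L2 and 66 at L4, and on the log2 scale described below 25 and 92 were. These counts compare whole arrays without centring. The IP arrays and the control arrays were scanned on different days, so kind of IP and scan day cannot be told apart in them. Among arrays of the same stage, the ALG-1 IP ranked the probes most like the ALG-2-Tag control IP, with a Spearman's rho of 0.83 at L2 and 0.81 at L4. The profile of the ALG-2-Tag IP was nearest that of the ALG-1 control IP, with rho of 0.81 at L2 and 0.62 at L4. Animals of the ALG-1 IP and of the ALG-2-Tag control IP were both labelled wild type. Those of the ALG-2-Tag IP and of the ALG-1 control IP were both Argonaute mutants. Whether genotype bears on the likeness was not tested. The counts and rho values are descriptions over 96 probes that share an array, a scan and a local background, and probes are not independent replicates.

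The brightness of the arrays differed between L2 and L4 by different amounts in the 4 IPs. The intensity of a probe is the median of its spots, on a linear scale in arbitrary units, after the scanner software had subtracted the local background. With the ALG-1 IP, the median probe had an intensity of 157 at L2 and 149 at L4. With the ALG-1 control IP it was 825 at L2 and 203 at L4. The ALG-2-Tag control IP had 265 and 61.3 at the respective stages. The ALG-2-Tag IP alone was brighter at L4, with 55.0 at L2 and 119 at L4. Both control IPs were thus dimmer at L4, the ALG-1 IP was nearly level, and the stages overlapped as groups of 4 arrays. In each IP the L4 array was scanned 14.2 to 19.0 min after the L2 array, at the same gain and the same slide end, and scan order and stage cannot be told apart.

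For the log2 scale used below, spots were passed through normexp, a limma method that keeps those below background positive, and 50 was added before the log was taken. The median of an array then differed from L2 to L4 by 0.04 with the ALG-1 IP, 0.83 with the ALG-2-Tag IP, -1.83 with the ALG-1 control IP and -0.80 with the ALG-2-Tag control IP. The mean difference was -0.44 ± 1.14 (SD, n = 4 pairs), and 2 of the 4 pairs were lower at L4. On the linear scale, at the 75th percentile of each array or without normexp, 3 of the 4 pairs were lower. The mean difference was smaller than the spread between the pairs (two-sided exact permutation test over signs, p = 0.75, where 4 pairs can reach 0.13). Without the ALG-1 control IP the mean difference was 0.03. On the L4 array of the ALG-2-Tag IP, 103 of the 768 spots lay below the local background, the lowest at -1738, against 95 on the L2 array of that IP, the lowest at -119. After normexp the spots of a probe had a median SD of 0.19 there against 0.49 on the L2 array.

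**Figure D1:**
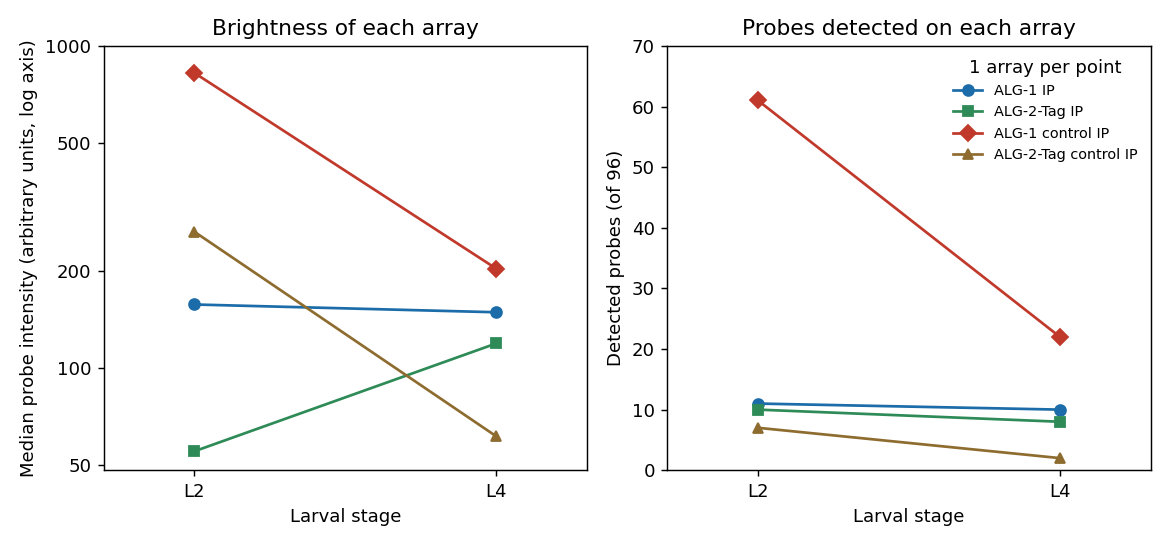
Median probe intensity (left, arbitrary units, log axis) and number of the 96 probes detected (right) on the L2 and the L4 array of each IP, 1 array per point, with lines joining the 2 arrays of an IP. Intensity was lower at L4 for both control IPs, nearly level for the ALG-1 IP and higher for the ALG-2-Tag IP, and the ALG-1 control IP went from 61 to 22 detected probes.

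A probe was called detected where the pixels brighter than the local background plus 2 SD made up at least 50%, as a mean over its spots. With the ALG-1 IP, 11 probes were detected at L2 and 10 at L4. The ALG-2-Tag IP detected 10 at L2 and 8 at L4. With the ALG-1 control IP there were 61 at L2 and 22 at L4, and with the ALG-2-Tag control IP 7 at L2 and 2 at L4. All 4 IPs thus detected fewer probes at L4, on average by 11.8 (the difference was -11.8 ± 18.2, SD, n = 4 pairs), which 4 pairs cannot bring under 0.05 (two-sided exact permutation test over signs, p = 0.13, the smallest this design allows). The size rested on the ALG-1 control IP, since without it the mean difference was -2.67. The direction in all 4 rested on the limit of detection, as 2 of the 4 pairs were lower with a limit of 25% of pixels and 3 of 4 with 75%.

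Over the 4 IPs together, 61 of the 96 probes passed this limit on 1 or more L2 arrays and 28 on 1 or more L4 arrays. All 28 were among the 61, and 0 were detected at L4 alone. Of the 61, 43 were detected on more arrays at L2 than at L4, 18 on as many, and 0 on fewer. The ALG-1 control array at L2 by itself accounted for as many detected probes as all L2 arrays together. On the Argonaute IP arrays alone, 18 probes were detected at L2 and 14 at L4. Probe emc04 was the only one detected on all 4 L2 arrays, and none was detected on all 4 L4 arrays. It had intensities of 688, 734.5, 5916 and 695 at L2 with the ALG-1 IP, the ALG-2-Tag IP, the ALG-1 control IP and the ALG-2-Tag control IP, and of 712.5, 1288, 1111 and 340 at L4 in the same order. It was therefore level in the ALG-1 IP, brighter at L4 in the ALG-2-Tag IP and dimmer at L4 in both controls, as the arrays as a whole were.

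Probe by probe, the test asked whether any of the 96 differed between L4 and L2 in the same way over the IPs. The median of the 96 probes was subtracted from each array, so that a value is the log2 intensity relative to the median probe of that array. On the L2 array of the ALG-1 control IP, 61 probes were detected and the median probe was one of them. The other arrays had 2 to 22, and their median probe was undetected. Centring thus raised undetected probes at L4 in the ALG-1 control IP. Its largest centred difference, 2.11, was that of a probe detected on none of the 8 arrays. These values enter every fit. limma was fitted with terms for IP and stage. The IPs stand in for replicates here, since no IP had a second array at a stage. The p-values measure the spread between the 4 paired differences and not between repeated IPs. That of the probe itself has 3 degrees of freedom. limma joins to it a spread pooled over all 96 probes, which counted for 7.30 degrees of freedom, so p-values and intervals rest mostly on the latter. Of the 96 probes, 0 were higher and 0 lower at L4 at an adjusted p under 0.05 (0% of the probes tested; limma with Benjamini-Hochberg adjustment, smallest adjusted p = 0.399). At an unadjusted p under 0.05 there were 5, of which 3 were higher and 2 lower. The differences ran from -0.61 to 0.84, with a median standard error of 0.24, and the 95% interval of a difference reached 0.53 to either side at the median. The intervals are not adjusted for the number of probes, and the largest difference, 0.84, was not called.

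Among 13 probes that passed the detection limit on 4 or more arrays, emc30 and emc44 had the largest differences towards L2. Probe emc30 had intensities of 358.5, 1380, 22211.5 and 384.5 at L2, in the order ALG-1 IP, ALG-2-Tag IP, ALG-1 control IP and ALG-2-Tag control IP. Its L4 intensities were 312.5, 1258.5, 3904 and 93 in this order. It was the brightest probe of the ALG-1 control IP at both stages, and it was dimmer at L4 in every IP, but by little in the Argonaute IPs. After centring, the differences of emc30 were -0.06, -0.97, -0.91 and -0.06, with a mean of -0.50 (standard error 0.25, 95% interval -1.05 to 0.05, limma adjusted p = 0.399). With quantile normalization the difference was 0.08. Both IPs in which it was detected, the ALG-2-Tag IP and the ALG-1 control IP, gave nearly the same difference only after centring. Before it, the log2 value of emc30 went from 10.39 to 10.26 in the ALG-2-Tag IP, whose array median differed by 0.83. In the ALG-1 control IP it went from 14.40 to 11.66, and the array median differed by -1.83.

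Probe emc44 had intensities of 110, 798.5, 2611 and 304.5 at L2 in the same order of IPs, and of 119.5, 913.5, 449.5 and 80.5 at L4. It was detected, like emc30, with the ALG-2-Tag IP and the ALG-1 control IP at both stages and with no other IP. Its mean centred difference was -0.47 (standard error 0.23, 95% interval -0.99 to 0.05, limma adjusted p = 0.399), lower in 4 of 4 IPs. With the ALG-2-Tag IP the deposited intensity was higher at L4. The mean log2 value of its spots was lower there by a difference of -0.16 before centring and of -0.99 after it.

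Towards L4, the largest differences among the 13 were those of emc19 and emc05. Probe emc19 had intensities of 645, 55.5, 1797.5 and 546.5 at L2 and of 577.5, 238, 650.5 and 268.5 at L4. Its centred difference was above 0 in 4 of 4 IPs, with a mean of 0.31 (standard error 0.22, 95% interval -0.18 to 0.80, limma adjusted p = 0.525). Without normalization between arrays it was -0.13. It was detected on the 4 arrays made with the ALG-1 antibody and on none made with the GFP antibody.

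Probe emc05 had intensities of 957.5, 72, 1273 and 756.5 at L2 and of 995.5, 1088.5, 257 and 470 at L4. Its mean difference of 0.31 (standard error 0.35, 95% interval -0.47 to 1.08, limma adjusted p = 0.671) covers opposite values. It was higher at L4 in 2 of 4 IPs, and without the ALG-2-Tag IP the difference was -0.11. With the ALG-2-Tag IP it was the 1 probe detected at L4 and not at L2, and there its signal was at least 1.47-fold higher at L4. This bound sets the L4 signal against the lowest detected signal of the L2 array, or the probe's own L2 signal where that is higher, before centring. After centring the bound was under 1, and no fold is given.

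**Figure D2:**
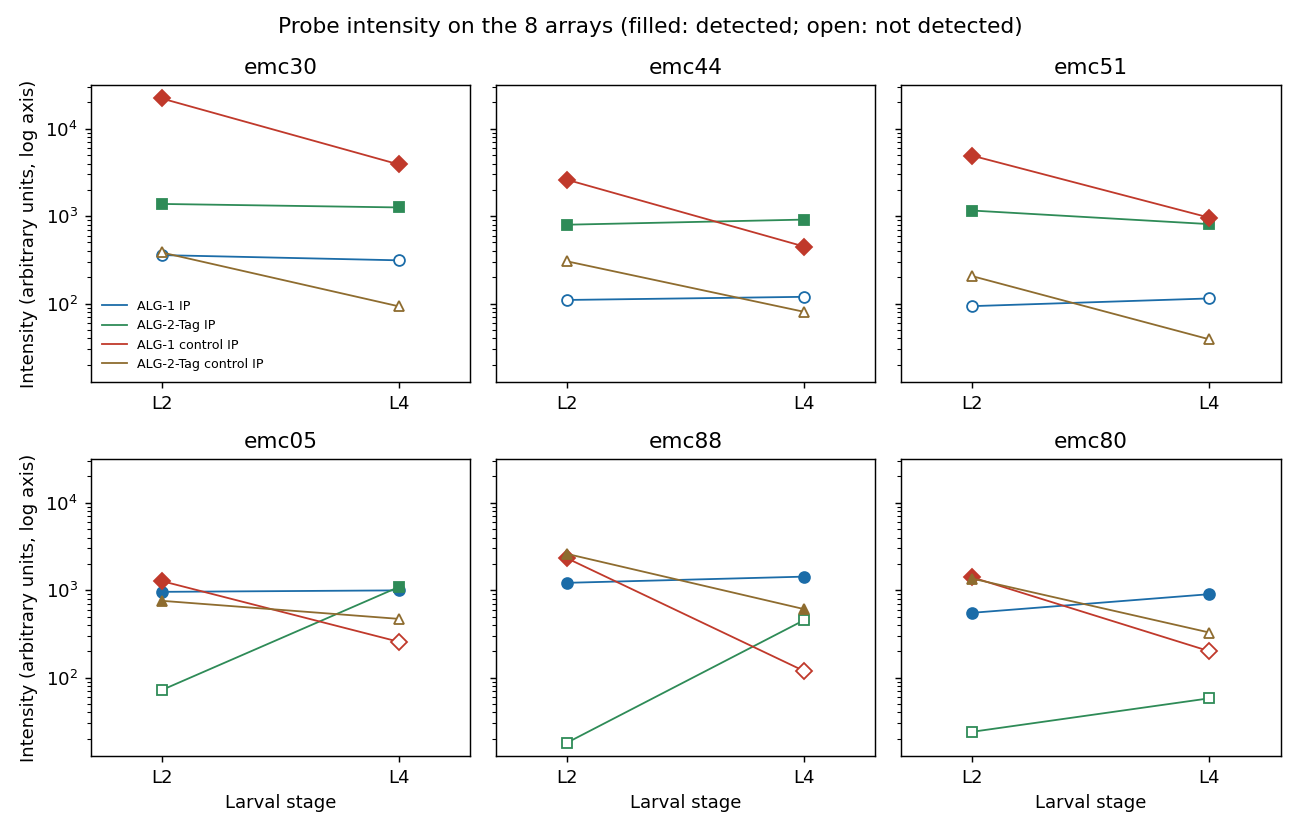
Intensity (arbitrary units, log axis) of 6 probes on the L2 and the L4 array of each IP, with filled symbols where the probe was detected and open symbols where it was not. Probes emc30, emc44 and emc51 were detected with the ALG-2-Tag IP and the ALG-1 control IP, emc88 and emc80 on both ALG-1 IP arrays and at L2 in both controls, emc88 also at L4 in the ALG-2-Tag control IP, and emc05 went from 72 to 1088.5 with the ALG-2-Tag IP.

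After centring, 10 of the 96 probes were higher at L4 in every IP (10.4%) and 10 were lower in every IP (10.4%). Most common was a split, with 32 probes higher in 2 IPs and lower in the other 2. Among the 13 probes detected on at least 4 arrays, 1 was higher in every IP and 4 were lower in every IP. The differences of the ALG-1 IP had a Pearson's r of -0.08 with those of the ALG-2-Tag IP, -0.01 with those of the ALG-1 control IP and 0.00 with those of the ALG-2-Tag control IP. Between the control IPs r was 0.45. The ALG-2-Tag IP had r of 0.29 with the ALG-1 control IP and of 0.11 with its own control. The correlations are over the 96 probes, of which 35 were detected on no array, and are given as descriptions.

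The IPs were then described one by one. There is 1 L4 array and 1 L2 array in each, so there is no test, and the spread given is that over the spots of a probe, which is technical. The ALG-1 IP was nearly the same at L2 and L4. Of the 11 probes detected at L2, 10 were detected at L4, and these were all that L4 had. The 10 brightest probes were the same 10 at both stages. Probe emc88 had an intensity of 1214.5 at L2 and 1429.5 at L4, and emc69 one of 1052.5 and 1430, and these were the brightest pair of probes at both stages.

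The centred differences of the ALG-1 IP ran from -0.68 to 0.43, with an SD of 0.22 over the 96 probes. An SD of 0.29 would be given by the scatter of the spots alone, for a difference of means over the spots of both arrays. For the ALG-2-Tag IP, the ALG-1 control IP and the ALG-2-Tag control IP the SD was 0.56, 0.89 and 0.43, against 0.24, 0.31 and 0.29 from the spots. Beyond 2-fold there were 0 probes in either direction (0% of the 96), and for 0 of the 96 (0%) did all centred spots at L4 lie on 1 side of all those at L2. The rank correlation between the stages was 0.95 over the 96 probes, higher than for any other pair of the 4 ALG-1 IP arrays of the series, which had 0.83 to 0.86 when L1 and L3 were included. The L1 and L3 arrays lay at the other slide end. With each other they had 0.86, and pairs across the ends differ in both stage and slide end. Over the 11 probes detected at either stage the rank correlation between L2 and L4 was 0.73. The L2 and L4 arrays were still separate measurements, with the same intensity at 1 of the 96 probes. The largest difference among the 10 probes detected at both stages was that of emc05, with a log2 intensity of 9.93 ± 0.32 (SD, n = 8 spots) at L2 and 9.29 ± 1.64 at L4. Its centred difference of -0.68 lay within the spread of the L4 spots, and the median of its spots was higher at L4. Probe emc29 had a centred difference of -0.41, also with spots that scattered more at L4 (SD 1.22 against 0.50). In the other direction, emc80 was higher by 0.23 and emc86 by 0.14, with spots that overlapped between the stages.

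**Figure D3:**
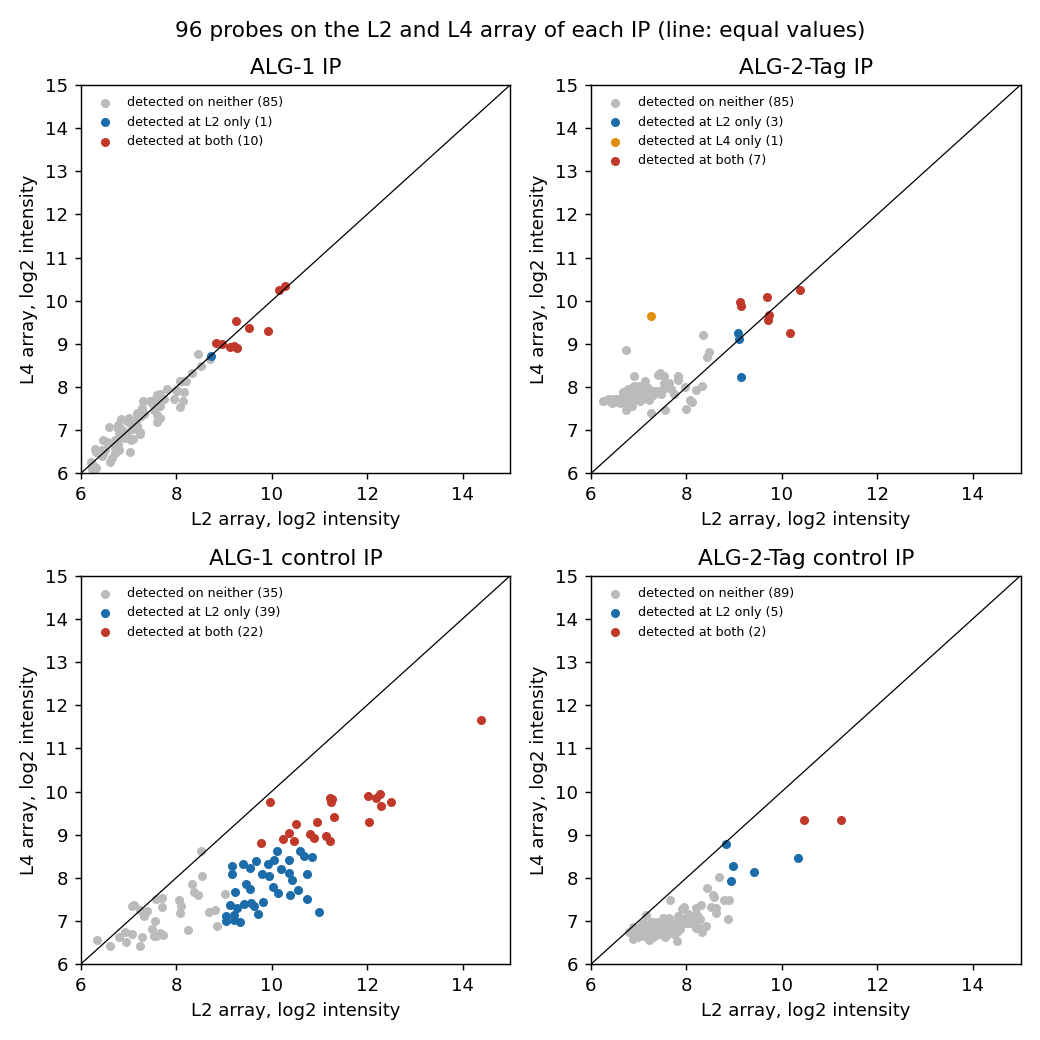
Log2 intensity of the 96 probes on the L4 array (vertical axis) against the L2 array (horizontal axis) of each IP, after normexp with an offset of 50 and with no centring, with colours for the stages at which a probe was detected and a line for equal values. Points of the ALG-1 IP lie along the line, those of the ALG-1 control IP lie below it for 91 of 96 probes, and dim probes of the ALG-2-Tag IP lie in a flat band above it.

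The ALG-2-Tag IP was less alike between the stages. It detected 10 probes at L2 and 8 at L4, with 7 in common, which is 70% of the former and 87.5% of the latter. Of the 3 probes lost at L4, 2 were brighter there, emc52 with an intensity of 531 at L2 and 834 at L4 and emc73 with 488.5 and 684 (both are named after their values were seen). The share of pixels above the background plus 2 SD went from 51.8% to 46.9% for emc52 and from 50.5% to 46.4% for emc73. The brightest probe was emc30 at L2, with 1380 against 1258.5 at L4, and emc04 at L4, with 1288 against 734.5 at L2. Of the 10 brightest probes 8 were shared. The rank correlation between the stages was 0.64, and 0.70 without normexp.

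Among the 7 probes detected at both stages with the ALG-2-Tag IP, 4 were dimmer and 3 brighter at L4 before centring, with a median difference of -0.06. After centring, 6 of 7 were lower, with a median of -0.89, since the array median itself was higher by 0.83. Probe emc51 had a log2 intensity of 10.18 ± 0.32 (SD, n = 8 spots) at L2 and 9.26 ± 0.46 at L4, a difference of -0.92 before centring and of -1.75 after it. Its deposited intensity was 1159.5 at L2 and 811 at L4, and after centring it was the 1 of the 7 for which all spots at L4 lay below all spots at L2. Such a separation, in either direction, was seen for 6.25% of the 96 probes. The 1 probe higher after centring was emc16, by 0.02, with an intensity of 501 at L2 and 1169.5 at L4. Beyond 2-fold, 2 of the 96 probes were higher (2.08%) and 7 lower (7.29%) at L4.

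The ALG-1 control IP had the highest median intensity at each stage on the linear scale, though not at L4 on the log2 scale, where the ALG-2-Tag IP was higher (7.86 against 7.67). It had the widest spread of centred differences (SD 0.89). On the log2 scale before centring, 91 of the 96 probes and all 22 probes detected at both stages were dimmer at L4. For these 22 the difference ran from -2.76 to -0.21, with a median of -1.84. The 22 made up all that was detected at L4 and 36.1% of the 61 detected at L2. The other 39 were undetected at L4, with L2 intensities of 566.5 to 2320.5, and for 19 of these 39 the signal at L2 was at least 2-fold higher than the lowest detected signal at L4. The largest of these bounds was at least 4.56-fold, for emc88. Relative to the median of each array no bound reached 2-fold, and the highest was at least 1.28-fold.

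After centring, the 22 probes detected at both stages with the ALG-1 control IP were divided evenly, with 11 higher and 11 lower at L4. Probe emc31 was higher by 1.62, since its intensity of 1155 at L2 and 1196 at L4 was level while the array dimmed, but its spots spread over an SD of 1.37 at L2 and 1.59 at L4. Probe emc37 was higher by 0.85, with 834 at L2 and 466 at L4. Probe emc16 had a centred difference of -0.93, with a log2 intensity of 12.05 ± 0.39 (SD, n = 8 spots) at L2 and 9.29 ± 0.49 at L4. That of the brightest probe, emc30, was -0.91. Beyond 2-fold, 25 of the 96 probes were higher (26%) and 3 lower (3.12%), but only 1 of these 25 and none of the 3 were detected at both stages. All spots at L4 lay on 1 side of those at L2, relative to the array medians, for 13.5% of the 96 probes and for 0 of the 22. The rank correlation between the stages was 0.83 over the 96 probes and 0.76 over the 61 detected at either stage, and 7 of the 10 brightest probes were shared.

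With the ALG-2-Tag control IP, all 96 probes were dimmer at L4 on the log2 scale before centring, and 2 of the 7 probes detected at L2 were still detected. These were emc88 and emc69, which were also the brightest with the ALG-1 IP. Probe emc88 had an intensity of 2603.5 at L2 and 607.5 at L4, and its log2 intensity was 11.24 ± 0.30 (SD, n = 8 spots) and 9.34 ± 0.35 (n = 6 spots). Probe emc69 had 1583 and 617.5. After centring their differences were -1.10 and -0.34. Beyond 2-fold there were 0 probes higher (0%) and 3 lower (3.12%). The rank correlation was 0.72 over the 96 probes and 0.61 over the 7 detected at either stage. On the L4 array 40 spots had been marked bad by the authors and were left out, against 3 on the L2 array.

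**Figure D4:**
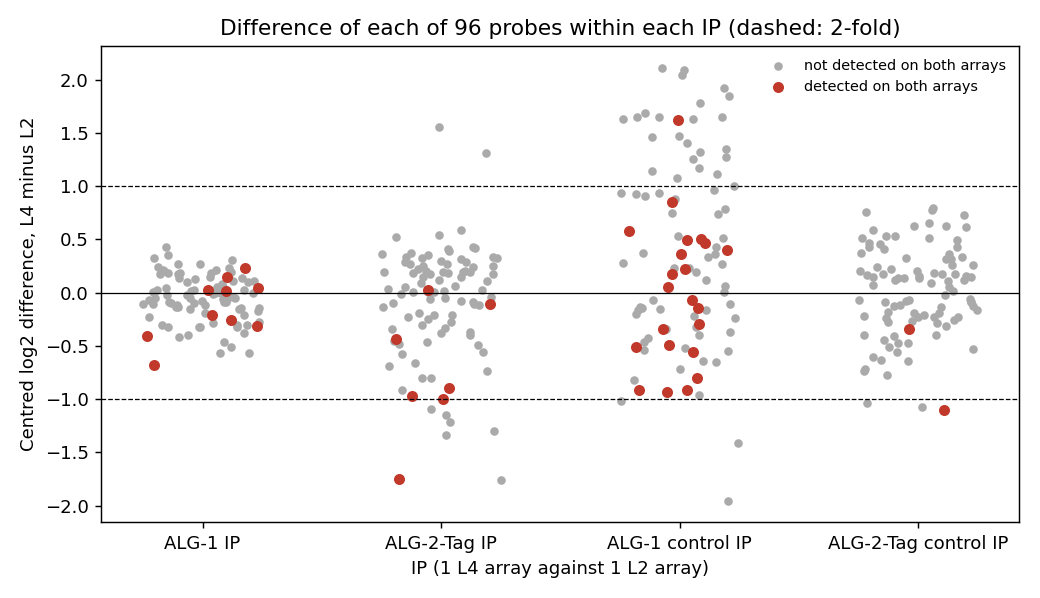
Centred log2 difference, L4 minus L2, of each of the 96 probes within each IP, with probes detected on both arrays in red and dashed lines at 2-fold. The ALG-1 IP spans -0.68 to 0.43, and the ALG-1 control IP spans -1.95 to 2.11.

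Whether the stages differed in another way in the Argonaute IPs than in the control IPs was tested as an interaction of stage with kind of IP. The control arrays were scanned on 1 day and the IP arrays on another, so this comparison is also one between scan days, and the kind of IP and the scan day cannot be told apart. Of the 96 probes, 0 passed (0%; limma, smallest adjusted p = 0.25, with 6 at an unadjusted p under 0.05). The largest difference was that of emc88. Its centred difference from L2 to L4 was 0.02 in the ALG-1 IP and 1.31 in the ALG-2-Tag IP, and it was -1.95 with the ALG-1 control IP and -1.10 with the ALG-2-Tag control IP. The Argonaute IPs lay above the controls by 2.19 (standard error 0.55, 95% interval 0.97 to 3.42, limma adjusted p = 0.25), and both lay above both. It passed the threshold in 5 of 14 alternatives, with a limma adjusted p of 7.46e-06 without normalization between arrays, 0.034 with centring on the 75th percentile and 0.0238 among probes detected on at least 4 arrays. Without the ALG-1 IP it was 2.84 (limma adjusted p = 0.0265) and without the ALG-2-Tag control IP 2.62 (limma adjusted p = 0.000496), where 1 arm has a single pair of arrays that is assumed to vary like the other arm. In the other alternatives the adjusted p reached 0.969. With the ALG-2-Tag IP emc88 was not detected, at 18 at L2 and 454.5 at L4, and with the ALG-1 control IP it was detected at L2 alone, at 2320.5 against 119.

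Probe emc80 also had both Argonaute IPs above both controls, with an interaction of 1.09 (standard error 0.43, limma adjusted p = 0.55). Its centred differences were 0.23 in the ALG-1 IP and 0.22 in the ALG-2-Tag IP. They were -0.65 with the ALG-1 control IP and -1.07 with the ALG-2-Tag control IP. In the ALG-1 IP its intensity was 551.5 at L2 and 900.5 at L4. It was 24 and 58 in the ALG-2-Tag IP, 1404.5 and 200.5 with the ALG-1 control IP, and 1357.5 and 328 with the ALG-2-Tag control IP. It was not detected at either stage with the ALG-2-Tag IP, nor at L4 with the controls. By these values it was brighter at L4 with the ALG-1 IP and dimmer at L4 in both controls. With the ALG-1 IP, however, its log2 difference before centring was 0.27, with SDs over 8 spots of 0.70 at L2 and 0.69 at L4, and the spots overlapped. In the other direction, among the 13 probes detected on at least 4 arrays, the interaction was -0.66 for emc51 (standard error 0.65, limma adjusted p = 0.656) and -0.47 for emc23 (standard error 0.46, limma adjusted p = 0.656). Each was about the size of its standard error. Over all 96 probes the lowest interaction was -1.32, for a probe detected on none of the 8 arrays, and it was not called. Without the ALG-2-Tag IP that of emc51 was 0.35. Without normalization between arrays, 26 probes passed in limma, all 26 with a higher difference in the Argonaute IPs, and the control arrays as a whole were dimmer at L4, as given above. Without the ALG-2-Tag control IP, again with 1 pair in an arm, 23 passed, of which 2 were higher and 21 lower.

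Between the antibodies, the difference from L2 to L4 did not pass at any probe (0 of 96, 0%; limma, smallest adjusted p = 0.478, with 2 at an unadjusted p under 0.05). Probe emc05 had the largest difference in size, with a mean centred difference from L2 to L4 of -0.54 in the IPs with the ALG-1 antibody and of 1.16 in those with the GFP antibody. It was not detected at L2 with the ALG-2-Tag IP or at L4 with either control, so that the differences of these 3 IPs rest in part on values near the background. The interaction was -1.70 (standard error 0.59, 95% interval -2.87 to -0.53, limma adjusted p = 0.478). Its interval rests almost wholly on the spread pooled over all probes (90.6 degrees of freedom, against 2 from the probe itself). Standard errors thus ran only from 0.59 to 0.63 over the 96 probes. Quantile normalization brought it past the threshold (-1.52, limma adjusted p = 0.0278), as did the use of the authors' processed intensities (-1.75, limma adjusted p = 0.0131), and the adjusted p ran from 0.0131 to 0.988 over all alternatives. For emc88 the interaction was -1.07 (standard error 0.63, limma adjusted p = 0.946). After quantile normalization it was -1.73 and passed (limma adjusted p = 0.00969), and without the ALG-2-Tag IP, with 1 pair left in an arm, it was 0.14, with a limma adjusted p between 0.00969 and 0.996 over all alternatives. In the other direction, among the 13 probes detected on at least 4 arrays, emc51 was higher with the ALG-1 antibody by 0.60 (standard error 0.61) and emc44 by 0.24 (standard error 0.59). Each had a limma adjusted p of 0.946. Over all 96 probes the largest in this direction was 1.22, which was not called.

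The step from L2 to L4 was also set against that from L1 to L3, whose 8 arrays lay at the other end of the slides, in a fit to all 16 arrays. Of the 96 probes, 0 differed (0%; limma, smallest adjusted p = 0.99, with 0 at an unadjusted p under 0.05). The mean centred difference of emc30 was -0.50 from L2 to L4 and 0.15 from L1 to L3 (difference -0.65, standard error 0.52, limma adjusted p = 0.99). For emc04 the values were -0.36 and -0.02, and their difference was -0.35 (standard error 0.31). Among the 13 probes detected on at least 4 arrays, the largest towards L4 were emc80, by 0.19 (standard error 0.38), and emc19, by 0.15 (standard error 0.34), so that no probe was shown to be particular to the later step.

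**Figure D5:**
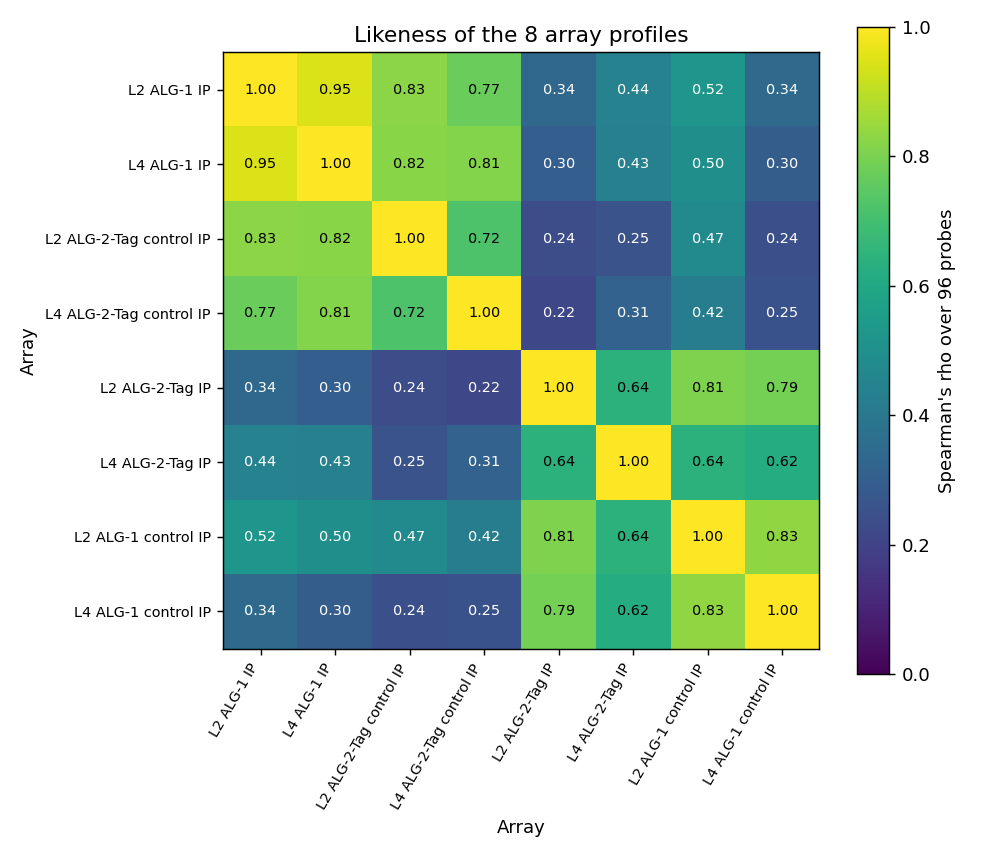
Spearman's rho over 96 probes between the log2 profiles of the 8 arrays, with the array on both axes and arrays ordered by IP. The L2 and L4 arrays of the ALG-1 IP have 0.95, those of the ALG-2-Tag IP 0.64, and the L2 array of the ALG-2-Tag IP has 0.79 with the L4 array of the ALG-1 control IP.

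The profile of an IP at L2 was not always nearest to that of the same IP at L4. For the ALG-1 IP it was, with a rho of 0.95 between its stages and of at most 0.83 with any other array. At L2 the ALG-2-Tag IP had a rho of 0.64 with its own L4 array, but of 0.81 with the L2 array and 0.79 with the L4 array of the ALG-1 control IP. At L4 the ALG-2-Tag IP had 0.64 with its own L2 array and 0.64 with the L2 array of the ALG-1 control IP. The ALG-1 control IP kept 0.83 between its stages, above its 0.79 to 0.81 with the ALG-2-Tag IP at L2. The ALG-2-Tag control IP had 0.72 between its stages, and its L4 array had 0.81 with the ALG-1 IP at L4. These values share the arrays compared and are given as descriptions over 96 probes, of which 35 were detected on none of the 8 arrays.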

How the data were processed

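Small RNA from 4 IPs at each of 4 larval stages was hybridised by the authors to arrays of 96 probes, and the L4 and L2 arrays (8 of 16) were analysed. The authors deposited spot intensity (linear, local background subtracted, no normalization, GenePix Pro 4.0.1.19), the percent of a spot's pixels brighter than background plus 2 SD, and codes for bad and missing spots. A deposited table of processed intensity values, linked to limma and R 2.13.1 in the submitters' processing notes, had column medians of 388 to 555 and means of 684.2 on these arrays. The sources used here do not give how its columns were scaled. Set against the probe intensity of each array as a straight line, they had intercepts of 200 to 219 and factors of 0.35 to 5.07. The largest residual of a column was 0.50 to 617. Its rows were not centred, and the table was used as an alternative.

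With limma 3.58.1 in R 4.3.3, normexp (offset 50) was applied to the spots, 48 spots marked bad were left out of 6144, the log2 values of a probe's spots were averaged, and arrays were centred on their medians. limma was fitted to all 96 probes on IP and stage. A probe's own spread had 3 degrees of freedom, and the spread pooled over probes added 7.30. These were 2 and 7.70 for kind of IP, 2 and 90.6 for antibody, and 9 and 7.30 for the comparison with L1 to L3. The code was run on simulated arrays with the same spread on every array. The IPs here differed in spread, so that run does not bear on how well the fit suits these arrays. Adjusted p-values are Benjamini-Hochberg values over 96 probes. Array values were compared with exact permutation tests. At most 2 probes were named each way, namely those with the largest change past the threshold, or, where fewer than 2 passed, among probes detected on at least 4 of the 8 arrays; within an IP they were chosen among probes detected at both stages. Probes and lists were chosen with earlier results of these data known. Alternatives changed the normalization, background correction, detection limit, probes, arrays and values. A slide term could not be fitted because the headers name no slides. Signal over background limits the precision, and 246 of the 6144 spots lay below background.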

Additional observations from a re-analysis of the deposited data

Results flagged for a closer look

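The number of detected probes differed from L2 to L4 by -39 with the ALG-1 control IP. It differed by -1, -2 and -5 with the ALG-1 IP, the ALG-2-Tag IP and the ALG-2-Tag control IP, and -39 lay far from these. At L2 the ALG-1 control IP had 61 detected probes, and the others had 11, 10 and 7 in that order. A count falls at most by its L2 value. The share of L2 probes still detected at L4 was 36.1% with the ALG-1 control IP, and 90.9%, 70% and 28.6% with the others. By share kept, the ALG-1 control IP was thus not the lowest. Chance alone marks about 1 in 20 groups of values in this way, and 6 groups of 4 differences were examined. That rate is for values under the same limits, which these 4 counts were not.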

How the results depend on the processing

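The comparison of L4 with L2 over all IPs gave 0 probes, in limma, under all 18 alternatives, with 0 to 20 at an unadjusted p under 0.05, and that against the step from L1 to L3 gave 0 under all 14. For the Argonaute IPs against the controls, the count was 26 without normalization between arrays, 1 with centring on the 75th percentile, 1 among probes detected on at least 4 arrays, and 0 to 23 when 1 IP was left out. Between the antibodies it was 2 with quantile normalization and 2 when the authors' processed intensities were used. Without normalization, the difference over all IPs turned to -0.13 for emc19 and to -0.13 for emc05, and the interaction with kind of IP to 1.09 for emc51 and 1.28 for emc23. The interaction with antibody turned without normalization to -0.31 for emc51 and -0.67 for emc44. For emc44 it was -0.18 under quantile normalization, -0.044 under centring on the 75th percentile and -0.13 without normexp. Quantile normalization turned emc30 over all IPs to 0.084, and the median of spots turned emc19 against the step from L1 to L3 to -0.088. With 1 IP left out, the range was -0.86 to 0.026 for array brightness and, over all IPs, -0.11 to 0.64 for emc05. Likewise, emc80 against the step from L1 to L3 ran from -0.22 to 0.41, and the interaction of emc51 with kind of IP from -1.67 to 0.35. The interaction with antibody ran from -0.43 to 1.64 for emc51, -0.17 to 0.64 for emc44 and -2.27 to 0.14 for emc88. The cause was not tested. Leaving out 1 IP in the 2 interactions, array brightness without normexp, and normexp without bad spots were added after seeing the data. No paired analysis by replicate number was possible because the labels give none.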
